A study of Carassius auratus with 6 samples.

Results

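Cone opsins of the goldfish eye were taken as every row of the deposited expression table whose best Swiss-Prot match was named as a colour-sensitive opsin. This gave 4 gene models of 56251, of which 1 matched red-sensitive opsin, 2 matched green-sensitive opsins and 1 matched ultraviolet-sensitive opsin, and 0 matched a blue-sensitive opsin, so blue is not analysed here. All 4 best matches were to goldfish proteins. Expression had been measured by RNA sequencing of eyeballs from Carassius auratus of 1 winter year, frozen whole and extracted with Trizol, in 3 libraries titled C and 3 titled R. The sources contradict each other on the phenotype: the sample characteristics give C as the normal eyes and R as celestial-eye, a breed with upturned eyes, and the design text of the series gives the reverse. The groups are therefore called by their letters, and differences are C minus R. According to the design text, the R fish came from a farm in Jiangsu and the C fish from a farm in Beijing, so stock, farm and eye phenotype cannot be told apart. No label ties a library to a particular fish, so the p-values measure only library-to-library spread, which may be technical.

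Cone opsins are the light-absorbing receptors of the cone photoreceptors, and the goldfish retina is a classical system for colour vision with cones sensitive to red, green, blue and ultraviolet light. Each cone opsin binds a retinal chromophore in the membranes of the cone outer segment and, once activated by light, switches on the cone transducin, which in turn activates a cGMP phosphodiesterase and closes cyclic nucleotide-gated channels. Goldfish descend from a polyploid ancestor, so that many of their genes, opsins among them, are present in more than 1 copy.

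Values are FPKM, that is, reads scaled to the length of the gene model and to the library's reads counted in genes, of which there were 9444623 to 11317200 per library. The whole eyeball was extracted, so fewer cones and less opsin RNA per cone cannot be told apart. Rhodopsin, the rod opsin and among the most abundant transcripts of the eye, summed to 22761 ± 3293 FPKM over the 3 C libraries and to 22739 ± 2011 FPKM over the 3 R libraries (mean ± SD), with groups that overlapped. The summed rod markers overlapped as well (33 models, 34400 to 45168 FPKM in C, 33176 to 39603 in R). Besides the cone markers, described further on, the groups did not overlap for 3 marker sums (exact permutation p = 0.1 each): lens (34 models, 21249 to 39107 FPKM in C, 47873 to 51048 in R), bipolar cells (28 models, 312 to 385 FPKM in C, 414 to 513 in R) and red blood cells (9 models, 9147 to 23335 FPKM in C, 2538 to 5533 in R). The sums for pigment epithelium, Mueller glia, ganglion cells, muscle and melanin overlapped. Among all single genes tested, the groups did not overlap for 41.4%. How far the differences in marker sums enter the opsin values was not tested.

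The 4 models lie on 4 chromosomes. In the coordinates of the table, whose assembly is not given in the sources used here, the red opsin model Cau.11G0006300 lies on chromosome 11 from 16515454 to 16522201 on the minus strand. Green-sensitive opsin-1, Cau.06G0009460, lies on chromosome 6 from 24781936 to 24783663 on the plus strand, and green-sensitive opsin-2, Cau.31G0009380, on chromosome 31 from 25500927 to 25507985 on the plus strand. The ultraviolet opsin model, Cau.04G0004470, lies on chromosome 4 from 8622341 to 8624633 on the minus strand. The exon and UTR structure of the models is not used here.

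Model lengths differed, and this bears on levels though not on the fold changes of a single model. The ultraviolet and green-1 models were 945 and 1050 bases long, while the green-2 and red models were 1869 and 2109 bases, 1.78 and 2.01 times the green-1 model. All 4 lengths are multiples of 3, as are 68.7% of all model lengths. Vertebrate cone opsins are proteins of much the same size, and opsin genes of other bony fishes often sit in tandem. Whether the 2 long models hold more than 1 opsin copy was not tested, and if they do, their values mix those copies. Reads from near-identical copies may also have been divided between models, so the values of the 2 green opsins carry that uncertainty.

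Red opsin had the highest level of the 4 models and was lower in C. Its level was 554, 499 and 799 FPKM in C1, C2 and C3, and 1060.0, 1111 and 1240.3 FPKM in R1, R2 and R3. Every C library lay below every R library, with C3 nearest to the R libraries. The C mean was 617 ± 159 FPKM and the R mean 1137 ± 92.9 FPKM (SD over 3 libraries each). In the mean of logs the level was 1.88 times higher in R. On the log2 scale the difference was -0.91 with a 95% interval of -1.36 to -0.46 (SE 0.19; limma, adjusted p = 0.0162). This call was lost when any of 3 single libraries was left out: the adjusted p was 0.0605 without C1, 0.0594 without R2 and 0.0538 without R3, with log2 fold changes of -0.84, -0.92 and -0.84 (limma).

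Green-sensitive opsin-1 showed the largest difference of the 4 models and was also lower in C. It had 287, 177 and 328 FPKM in C1, C2 and C3, and 862, 953 and 1011 FPKM in R1, R2 and R3. The groups were far apart, the highest C library lying well under the lowest R library. The means were 264 ± 78.0 FPKM in C and 942 ± 74.9 FPKM in R. In the mean of logs the level was 3.68-fold higher in R. On the log2 scale the difference was -1.87 with a 95% interval of -2.40 to -1.34 (SE 0.23; limma, adjusted p = 0.00174). Over all other settings tried, including each library left out in turn, it lay between -2.05 and -1.61, with adjusted p-values of 0.000627 to 0.0112 (limma and limma-voom).

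Green-sensitive opsin-2 did not pass the test. It had 265, 214 and 355 FPKM in C1, C2 and C3, and 216, 237 and 241 FPKM in R1, R2 and R3. The groups overlapped, since C2 lay below all R libraries and C1 and C3 above them. The means were 278 ± 71.1 FPKM in C and 232 ± 13.7 FPKM in R. The log2 difference of 0.23 had a 95% interval of -0.21 to 0.67 (SE 0.19; limma, adjusted p = 0.416), which leaves room for a difference in either direction.

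Ultraviolet opsin was the lowest of the 4 models and did not pass the test either. It had 52.9, 58.4 and 70.1 FPKM in C1, C2 and C3, and 60.1, 64.6 and 93.7 FPKM in R1, R2 and R3. The groups overlapped, with R3 above the rest. The means were 60.5 ± 8.80 FPKM in C and 72.8 ± 18.2 FPKM in R, and the log2 difference of -0.25 had a 95% interval of -0.69 to 0.20 (SE 0.19; limma, adjusted p = 0.398). This model was covered by 472 to 1002 reads per library, the red model by 10329 to 29604, green-1 by 1826 to 12011 and green-2 by 3926 to 7302.

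**Figure D1:**
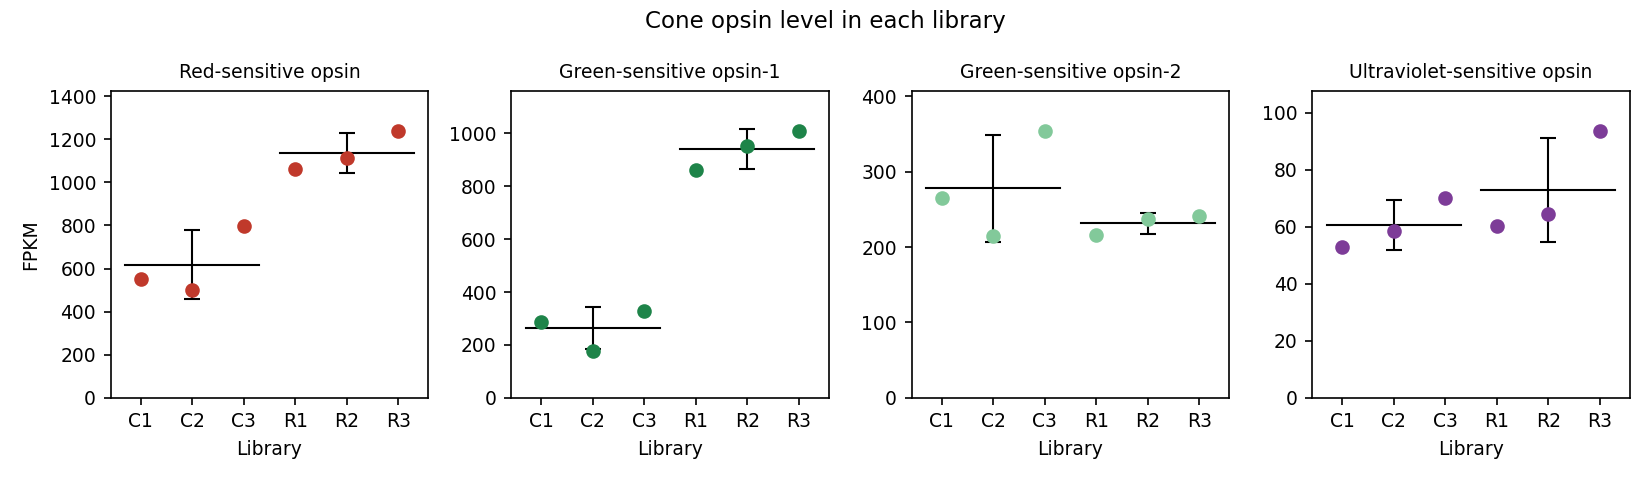
FPKM of each cone opsin model (linear axes starting at 0, a separate scale per panel) in the 3 C and 3 R libraries; points are libraries, horizontal lines are group means and bars are 1 SD. For red opsin and green-sensitive opsin-1 all C points lie below all R points, while for green-sensitive opsin-2 and ultraviolet opsin the groups overlap.

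Of the 4 models, then, 2 were called lower in C, 0 were called higher and 2 were not called (limma; 0 were higher in C at an unadjusted p under 0.05 and 0 by limma-voom). Across all 33907 genes tested, 11.6% were called lower and 8.67% higher in C, the C and R libraries did not overlap for 41.4%, and all C lay below all R, as for red and green-1, for 25.1%. The median log2 fold change was -0.58 over the 4 opsins and -0.09 over all genes tested.

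Summed by colour, the C libraries lay below the R libraries for red and for green. The red sum is that of its single model. The green sum was 552, 391.5 and 683 FPKM in C1, C2 and C3, and 1078, 1191 and 1252 FPKM in R1, R2 and R3. The difference of log2 sums was -1.149, and with green-1 left out it was 0.23. The description column of the table calls green-2 a pineal opsin-like gene, and it does not name the red model as a red-sensitive opsin. With colours taken from that column the green sum was green-1 alone, differing by -1.88, and red had no value. The cone opsin models together, with no blue opsin among them, had 1219.8 ± 306 FPKM in C against 2384 ± 195 in R. In the mean of logs their sum was 1.99 times higher in R (difference of log2 sums -0.99). The shares and ratios of this sum given below leave out blue as well. The libraries did not overlap for the red, green and total sums (exact 2-sided permutation p = 0.1 for each, the smallest that 3 against 3 libraries can give), and they overlapped for ultraviolet (exact permutation p = 0.4).

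The rod opsin did not pass the test. The main rhodopsin model, Cau.08G0014230 on chromosome 8, had 22317 ± 3251 FPKM in C against 22249.7 ± 1989 in R, a log2 difference with a 95% interval of -0.40 to 0.40 (limma, adjusted p = 0.995). A second rhodopsin model, Cau.11G0007680, had 444 ± 46.9 FPKM in C against 489 ± 27.4 in R (limma adjusted p = 0.486), and the other 2 rhodopsin models were below the minimum of the test. The cone opsin sum was 5.90%, 4.23% and 5.92% of the rhodopsin sum in C1, C2 and C3, and 9.50%, 11.5% and 10.5% in R1, R2 and R3. The groups did not overlap in this ratio (exact 2-sided permutation p = 0.1), and the difference of its log2 values was -0.99.

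The composition of the cone opsin sum differed most in the green opsins. Green-1 made up 24.8%, 18.7% and 21.1% of the sum in C1, C2 and C3, and 39.2%, 40.3% and 39.1% in R1, R2 and R3. Green-2 made up 22.8%, 22.6% and 22.9% in the C libraries, and 9.82%, 10.03% and 9.34% in the R libraries. Within each letter these shares were close, and between the letters they were far apart (exact 2-sided permutation p = 0.1 for each). Shares of the same sum depend on each other, so they are not separate results. The level of green-2 itself was not called, and its share is higher wherever red and green-1 are lower.

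Of the 2 green opsins summed, green-1 accounted for 48.5% ± 3.41 in C and 80.3% ± 0.404 in R. Red opsin made up 50.6% ± 2.51 of the sum in C and 47.7% ± 0.668 in R, with overlapping groups (exact permutation p = 0.3), and ultraviolet opsin 5.08% ± 0.928 in C and 3.03% ± 0.515 in R. The green sum made up 44.3% ± 3.21 in C and 49.3% ± 0.966 in R, with the highest C library at 47.6% and the lowest R library at 48.4% (exact permutation p = 0.1 for green and for ultraviolet). These shares are of FPKM, in which reads are divided by model length, while shares of reads weight the longer models more. With reads in place of FPKM the C minus R difference was -1.26 percentage points for red and 0.30 for green, each of the opposite sign, so no direction is given for either.

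**Figure D2:**
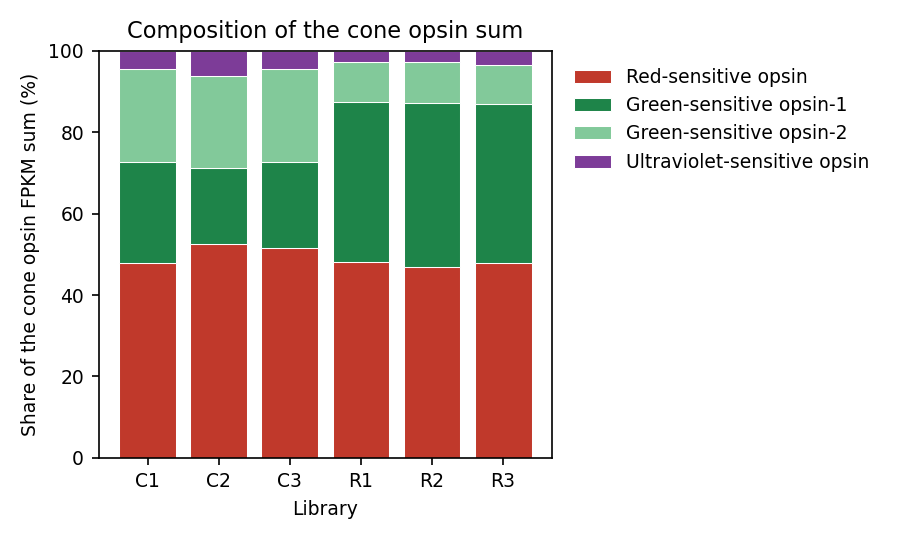
Share of each cone opsin model in the summed cone opsin FPKM (percent, stacked to 100) for each library. Shares of the same sum are not independent of each other. Green-sensitive opsin-1 takes 18.7% to 24.8% in the C libraries and 39.1% to 40.3% in the R libraries, and green-sensitive opsin-2 takes 22.6% to 22.9% and 9.34% to 10.03%.

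The order of levels in C1 was that of the R libraries, and it differed in C2 and C3. In each R library red was highest, followed by green-1, green-2 and ultraviolet. In the C libraries red was again highest and ultraviolet lowest, but the green opsins were nearly level, green-1 being 1.09, 0.828 and 0.925 times green-2 in C1, C2 and C3, against 3.99, 4.02 and 4.19 times in R1, R2 and R3. These orders are of levels per kilobase of model and share the uncertainty on model length.

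The ratio between each pair of opsins was compared directly, over 6 pairs. The C and R libraries did not overlap in 5 of them, the exception being ultraviolet over green-2 (exact 2-sided permutation p = 0.2). Among all single genes tested, 41.4% did not overlap. No such share was computed for ratios between genes, so the figure is not a like measure. Each of the 5 pairs includes red or green-1, the models called lower in C, so the pairs are not independent results. The largest difference was green-1 over green-2, with a mean ratio of 0.947 in C and 4.07 in R, 4.32-fold higher in R in the mean of logs. Red over green-2 was 2.23 in C and 4.91 in R, and green-1 over red was 0.428 in C and 0.829 in R. Ultraviolet over green-1 was 0.242 in C and 0.0767 in R, and ultraviolet over red was 0.1001 in C and 0.0635 in R. In all 5 pairs the exact permutation p was 0.1, and 0.12 after Benjamini-Hochberg adjustment over the 6 pairs, so none can pass a threshold of 0.05 in a design of this size.

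Cone transducin offers a reference from the same cells. The gene gnat2 encodes the alpha subunit of cone transducin, the protein that opsin activates, and it had 2 models. Their log2 fold changes were 0.02 and 0.13 (limma adjusted p = 0.956 and 0.639, 95% intervals -0.42 to 0.45 and -0.28 to 0.54). The gnat2 sum was 911, 917 and 1355 FPKM in C1, C2 and C3, and 969, 939 and 1075 FPKM in R1, R2 and R3. C3 was the highest library here, as it was among the C libraries for each of the 4 opsins. The choice of gnat2 as a reference was made after its values were seen.

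Relative to gnat2, red opsin was 0.608, 0.545 and 0.589 in C1, C2 and C3, and 1.09, 1.18 and 1.153 in R1, R2 and R3. On this scale C3 lay between C1 and C2. Green-1 relative to gnat2 was 0.315, 0.193 and 0.242 in the C libraries, and 0.890, 1.02 and 0.940 in the R libraries. In the mean of logs it was 3.86-fold higher in R. Green-2 relative to gnat2 was 0.262 ± 0.0283 in C and 0.233 ± 0.0167 in R, and ultraviolet opsin was 0.0578 ± 0.00597 in C and 0.0726 ± 0.0130 in R, with overlapping groups for both (exact permutation p = 0.2 each). Per unit of gnat2 RNA, then, the groups did not overlap for red and green-1, and overlapped for green-2 and ultraviolet. The gnat2 sum differed little between the letters (difference of log2 sums 0.07). These ratios therefore largely repeat the levels per library and are not a separate result.

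**Figure D3:**
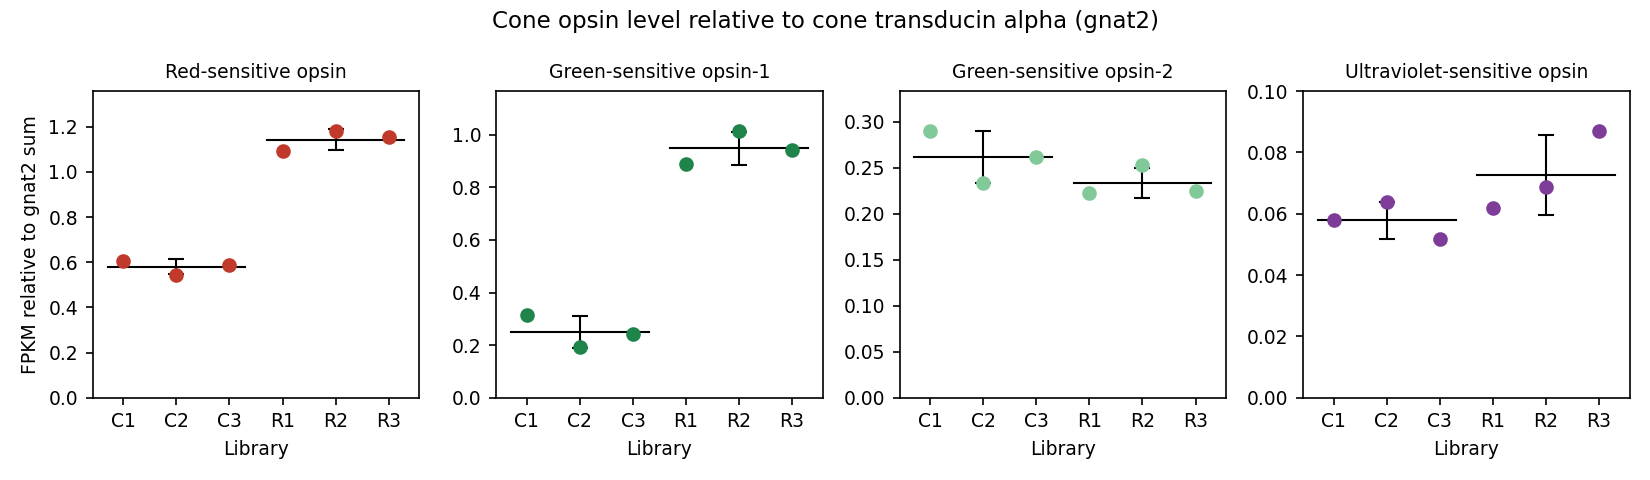
FPKM of each cone opsin model divided by the summed FPKM of the 2 gnat2 models (no unit, linear axes from 0) in each library, with group means and 1 SD. Red opsin lies between 0.545 and 0.608 in C and between 1.09 and 1.18 in R, and green-sensitive opsin-1 between 0.193 and 0.315 in C and 0.890 and 1.02 in R.

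A wider list of cone genes, gnat2 among them, gave a different reference. The cone marker list, 26 models of 9 genes, summed to 8081, 8022 and 12303 FPKM in C1, C2 and C3, and 5119, 4994 and 6032 FPKM in R1, R2 and R3. Every C library lay above every R library. This held for the sums of arr3, cngb3, grk7, pde6c, pde6h and rgs9. The gnb3 sum was lower in all C libraries, and the groups overlapped for gnat2 and gngt2. Relative to the summed cone marker list, each of the 4 opsins was lower in all C libraries than in all R libraries. The ratio was 6.36-fold higher in R for green-1 in the mean of logs, 3.25-fold for red, 2.06-fold for ultraviolet and 1.47-fold for green-2 (exact permutation p = 0.1 each). The sign for green-2 was thus opposite on this reference and on gnat2. The cone marker sum averaged 9469 FPKM in C and 5382 FPKM in R. Of this, arr3 held 4832 FPKM in C and 1954 in R, and pde6h 1154 and 252. How the opsin ratios would stand without these genes was not tested.

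Arrestin made up more of the cone marker sum than any other gene of the list. The cone arrestin genes arr3, whose proteins bind the activated opsin and end its signal, summed to 3818, 4116 and 6562 FPKM in C1, C2 and C3, and 1892, 1782 and 2188 FPKM in R1, R2 and R3. Of the 3 models 1 passed the test, arr3a (Cau.10G0006380), at 3608 ± 1099 FPKM in C against 1157 ± 107 in R, a log2 difference of 1.60 (SE 0.22; limma, adjusted p = 0.00263). The opsin kinases grk7, which mark activated cone opsins for arrestin, summed to 108 ± 23.4 FPKM in C and 55.0 ± 12.3 FPKM in R, with 2 of 5 models called higher.

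Among the wider set of phototransduction genes of cones, some of which rods use too, 78 of 85 models passed the minimum of the test. Of these 19 were called higher and 11 lower in C (38.5%, against 20.2% of all genes tested), with a median log2 fold change of 0.11. The number called lower depended on single libraries, with 7 models without C1, C2 or R3 and 5 without R2. The list had 23 gene names, of which cnga3, guca1c and gucy2d matched no row. It was chosen with earlier results of these data known, so its share called describes the list and does not test it.

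The 8 models of this list with the smallest p-values came from 4 genes. On the log2(FPKM + 1) scale the largest difference was in pde6h, which encodes the inhibitory subunit of the cone phosphodiesterase. Summed over its 2 models, pde6h had 1077, 939 and 1445 FPKM in C1, C2 and C3, and 274, 241 and 242 FPKM in R1, R2 and R3, and only the model Cau.06G0000320 passed the test, with a log2 difference of 3.48 (limma, adjusted p = 4.51e-05). Both models of cngb3, a gene for a subunit of the cone channel, were higher in C, by 2.13 and 1.22 on the log2 scale (limma, adjusted p = 0.000157 and 0.000719), and its sum was 116 ± 1.66 FPKM in C and 39.8 ± 3.82 FPKM in R. A weakly expressed model of rgs9a, whose product speeds the shutoff of transducin, had 3.97 ± 0.245 FPKM in C against 0.558 ± 0.321 in R (1.69, SE 0.20, limma adjusted p = 0.00142).

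The other 4 of these models were matched to guca1a, an activator of the retinal guanylate cyclases that restore cGMP after light. Of these, 2 were higher in C (Cau.47G0000570 at 2.62 and Cau.22G0002240 at 2.71 on the log2 scale) and 2 were lower (Cau.15G0003920 at -2.21 and Cau.22G0001310 at -2.10, limma adjusted p-values of 9.33e-05 to 0.0016 for the 4). With 0.1 in place of 1 added to FPKM, Cau.22G0002240 differed by 3.59, more than the pde6h model Cau.06G0000320 at 3.50. In sum the 11 guca1a models had 955 ± 276 FPKM in C against 951 ± 153 in R, with overlapping groups. The beta subunit gene of cone transducin, gnb3, had 471, 421 and 557 FPKM in C1, C2 and C3, and 714, 765 and 817 FPKM in R1, R2 and R3, and 1 of its 3 models was called lower.

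Cone identity and opsin choice are governed by nuclear receptors and homeobox factors, known mainly from zebrafish and mouse. For a list of 26 such genes, including thyroid hormone signalling, 17 names matched 64 models, of which 49 were tested. In C, 12 were called higher and 11 lower (46.9% of those tested, against 20.2% of all genes), with a median log2 fold change of -0.07. The lower count was 7 without R1 or R3. The list was chosen with earlier results of these data known, so its share called is descriptive and not a test of the list. The thyroid hormone receptor gene thrb, which red opsin needs in zebrafish, matched no row. The related thraa had 6.91 ± 2.54 FPKM in C against 8.18 ± 2.64 in R (limma adjusted p = 0.62). The names six7, foxq2, crx, nrl, rax, rax2, cyp27c1 and xvent matched no row either, so these names are not covered here. Whether models under other names stand for these regulators was not tested.

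The retinoid X receptor gamma gene rxrg, a partner of thyroid hormone receptor in cones, was higher in C, with 80.8, 63.4 and 75.3 FPKM in C1, C2 and C3 and 24.3, 24.5 and 24.8 FPKM in R1, R2 and R3 summed over its models. All 4 tested models were called higher, the most abundant of them, rxrga, by 1.63 on the log2 scale (SE 0.17, limma adjusted p = 0.000963). The orphan receptor gene rorb, needed for photoreceptor development in mouse, was lower in C, with sums of 89.5, 101 and 68.2 FPKM in C1, C2 and C3 and 177, 190 and 235 FPKM in R1, R2 and R3. Of its 7 tested models 5 were called lower, and the most abundant (Cau.33G0004860) was lower by 1.93 on the log2 scale (SE 0.16, limma adjusted p = 0.000403). That model lies next to another called rorb model, Cau.33G0004850, on chromosome 33. Whether such adjacent models, also present for dio2, dio3 and tbx2, are parts of 1 gene was not tested, so the counts are of models and not of gene copies.

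Other regulators were called in both directions. The most abundant neurod1 model, of a factor for photoreceptor differentiation, had 208 ± 20.1 FPKM in C against 91.7 ± 22.2 in R (log2 difference 1.19; limma, adjusted p = 0.0041). The receptor gene nr2e3, which represses cone genes in rods, had 178 ± 21.4 FPKM in C against 81.4 ± 18.7 in R (1.13, limma adjusted p = 0.00532). The most abundant model of the homeobox gene rx1 had 46.4 ± 3.03 FPKM in C against 28.6 ± 2.71 in R (0.68, limma adjusted p = 0.00771). The other models of neurod1 and rx1 were called higher as well. Lower in C were the most abundant models of otx2b (log2 fold change -0.76), nr2f1 (-1.18) and nr2f2 (-1.21), with limma adjusted p-values of 0.011, 0.00367 and 0.0255. The nr2f2 call was lost without R1, R2 or R3 (limma adjusted p = 0.0801, 0.0885 and 0.0549).

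For the remaining regulators with a row the most abundant model did not pass the test. They were tbx2b, which in zebrafish sets ultraviolet cone fate (8.81 ± 1.28 FPKM in C and 10.8 ± 0.943 FPKM in R), six6, six3, otx5, nr2f6, dio2, which encodes the enzyme that makes active thyroid hormone, and dio3, which encodes the enzyme that inactivates it. The limma adjusted p-values of these models ranged from 0.0639 (nr2f6) to 0.416 (otx5). Other models of some of these genes were called: 2 of 6 tested tbx2 models and 1 of 3 nr2f6 models were lower in C, and 1 of 2 otx5 models and 2 of 5 dio3 models were higher. No model of six3, six6 or dio2 was called. The most abundant gdf6 model was below the minimum of the test.

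**Figure D4:**
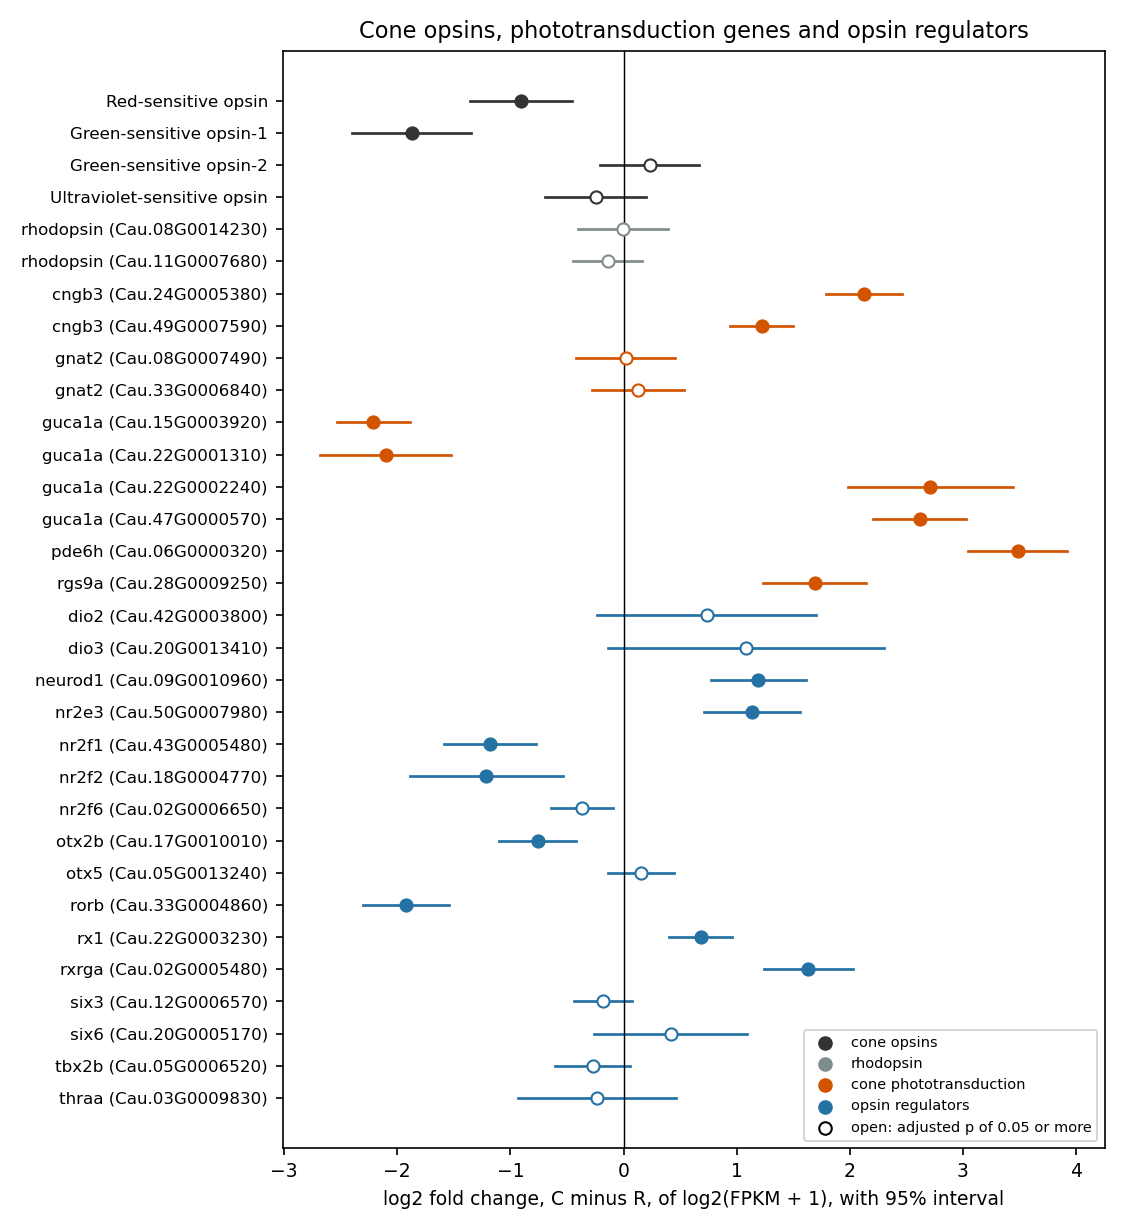
Log2 fold change of C minus R on the log2(FPKM + 1) scale, with 95% intervals from limma, for the 4 cone opsins, 2 rhodopsin models, the 2 gnat2 models with the 8 phototransduction models of smallest p, and the most abundant tested model of each opsin regulator. Filled points passed an adjusted p of 0.05; red opsin lies at -0.91 and green-sensitive opsin-1 at -1.87, while green-sensitive opsin-2, ultraviolet opsin, rhodopsin and gnat2 are open.

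The 2 green opsins had neighbours of the same names. Among the 4 gene models on each side, cadps, cplane2, fkbp5 and slc6a13 were named at both loci and in the same order. No further opsin model lay within 4 models of any of the 4 cone opsins. Of the 32 neighbouring models, 23 were tested and 4 were called (17.4%, against 20.2% of all genes tested). These were mdm1 beside ultraviolet opsin (log2 fold change -0.66) and a cadps model beside green-1 (-0.75). The others were cxxc1 beside red opsin (0.47) and an fkbp5 model beside green-2 (1.68). The remaining models named cadps and fkbp5 at the green loci were not called. The uncalled fkbp5 models lay close to the threshold, at 1.40 beside green-1 and 1.56 beside green-2 (limma adjusted p = 0.0572 and 0.0569). For the called fkbp5 model the limma adjusted p was 0.0366.

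Of the models directly beside an opsin, none of those tested was called. Across all genes tested 20.2% were called, so the absence of a call among so few models is not a result about them. Next to red opsin, gnl3l differed by 0.33 and hcfc1 by -0.41 on the log2 scale, and neither passed the test (limma adjusted p = 0.194 and 0.225). At the green-1 locus the flanking models slc6a22.2 and synpr were below the minimum of the test, as was the slc6a13 model next to green-2. At the fkbp5 models on both green loci, which encode a stress-responsive co-chaperone, R3 stood apart from the other R libraries, with 194 FPKM on chromosome 6 against 54.8 in R1 and 65.6 in R2.

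The genes whose profiles over the 6 libraries lay nearest to each colour sum were found among 8956 models with a mean of at least 10 FPKM, by the root mean square difference of centred log2(FPKM + 1) values. Nearest to red were calb2, encoding the calcium-binding protein calretinin, at 0.0773, and zgc:153704 at 0.083. Nearest to the green sum were mipa, encoding the lens water channel, at 0.0566, and crybb1, encoding a lens beta crystallin, at 0.0831. The mipa model had 226, 145 and 270 FPKM in C1, C2 and C3, and 397, 441 and 482 FPKM in R1, R2 and R3. Its libraries stood in the same order as those of the green sum. It was chosen among 8956 models for this likeness, so the shared order is not a separate result. Nearest to ultraviolet were slc1a7, encoding a retinal glutamate transporter, at 0.0766, and the model Cau.26G0014050, which carries no name, at 0.0787.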

How the data were processed

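The members and gene lists were chosen with earlier results of these data known. The authors deposited FPKM per gene model. Per the submitters' processing notes, which give no roles, the tools were TopHat2 2.0.9, DESeq 1.10.1 and Bowtie 0.12.5; the pig build Sscrofa 10.2 named there does not match the goldfish identifiers. The sources used here do not name the counting tool, strand setting or goldfish assembly. The single-group tables repeat the joint table. FPKM times length gave whole reads within 0.01 for at least 99.998% of values per library.

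Models reaching 1 FPKM in 3 or more of the 6 libraries were tested on log2(FPKM + 1) in R 4.3.3 by limma 3.58.1 with an intensity trend and robust variances, group as the only term, Benjamini-Hochberg adjusted over all of them and called under 0.05. Fold changes on this scale understate low genes. The fit was also run on simulated reads that shared the same spread setting across all genes and both groups. Red and the green opsins spread more in C than in R, a case that run does not cover. Sums and ratios were compared by exact permutation. Names came from RefSeq (ASM336829v1, names only; 9538 models) or the Swiss-Prot match.

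The text names all members, rhodopsin models above 10 FPKM, the 8 phototransduction models of smallest p, the most abundant model of each regulator and the 2 nearest profiles per colour. Names such as tbx20, caught by the suffix rule for tbx2, were left out. The genes arr3, grk7, gnb3 and the neighbours were named after their values were seen. Alternatives were another pseudocount, filters, scalings, limma-voom, each library left out and a replicate block.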

Additional observations from a re-analysis of the deposited data

How the results depend on the processing

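Green-sensitive opsin-1 kept its call in all 14 other fits, and green-sensitive opsin-2 and ultraviolet opsin were called in none of them. Red opsin lost its call in 3, and the count of opsins called lower in C ranged from 1 to 2 as single libraries were left out. Counts called lower ranged from 5 to 12 for phototransduction and from 7 to 10 for regulators with a library left out, and were 7 for phototransduction with the median ratio set to 0 and 7 for regulators with a mean of at least 5 FPKM, where fewer genes were tested. The green sum changed sign with green-1 left out (0.23), and by read shares red (-1.26 percentage points) and green (0.30) changed sign, since reads weight the longer models more. Among uncalled regulators, otx5 changed sign with quantile normalization (-0.0066) and thraa without C3 (0.0708; lowest -0.4513, without R1), and the cause was not tested.

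The labels do not pair the libraries. Deviations of same-numbered libraries correlated at -0.00523, 0.0989 and 0.0394, and not every library correlated best with its own number. With the replicate block, 2592 genes were called higher and 3379 lower, against 2939 and 3925 without it, the opsin calls stayed at 2 lower and 0 higher, and of the regulators named dio3 passed (adjusted p = 0.00983). The differences of log2 sums were unaltered by construction (-0.91, -1.15, -0.25 and -0.99 for red, green, ultraviolet and all, exact sign-flip permutation p = 0.25, the smallest possible). With colours taken from the description column, the green sum, then without green-2, differed by -1.88, ultraviolet was unaltered and red gave no value. Relative to gnat2 and to the cone markers, alternatives chosen after seeing the data, the cone opsin sum differed by -1.06 and -1.78. With 3 libraries per group, sums, shares and ratios cannot reach p under 0.1.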
